A study of Mus musculus with 19 samples.

Results

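Somatostatin (SST) interneurons of the mouse neocortex were compared with whole neocortex for the microRNAs (miRNAs) bound to the protein Ago2. The comparison took every library of these 2 groups, 5 of the 19 libraries of the study, by group label and without regard to any measured value. The SST group held 2 libraries, each from 4 pooled neocortices of mice on a C57BL/6 & 129 background, in which Ago2 was pulled down through its Myc tag with anti-Myc. The Neocortex group held 3 libraries, each from 1 neocortex of mice on a C57BL/6 & BALB/c background, in which Ago2 of any cell was pulled down with anti-Ago2. All mice were at postnatal day 56, and no treatment is named. The labels name neither the allele that carries the tag nor the driver that confines it to SST cells. Antibody, strain background and pooling all differ between the groups in the same way as the cell class, so their parts in a difference cannot be told apart. The labels do not say whether replicates came from different animals, so the p-values reflect only how far these libraries spread, which may be technical.

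A miRNA is cut from a hairpin precursor that has a 5′ and a 3′ arm, and the strand that stays in Ago2 guides it to messenger RNAs that pair with the seed, its bases 2 to 8. An arm name with a star marks the strand that was thought to be the lesser one when it was named. SST interneurons are GABAergic cells that mostly contact the dendrites of pyramidal neurons. Whole neocortex holds these cells among excitatory neurons, other interneurons, glia, vessels and blood, so it serves as a mixture of which SST cells are a small part.

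Sequences of some miRNAs with large differences and of their seed partners are printed 5′ to 3′ from RefSeq on GRCm38.p6, with the seed in capitals. miRNAs of 1 seed stand next to each other. Of 37 names looked up, 33 had an entry. miR-187, miR-34c, miR-143 and miR-124 had none and are not printed. The first set holds miRNAs that were higher in SST cells.
miR-7a: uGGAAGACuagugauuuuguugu
miR-7b: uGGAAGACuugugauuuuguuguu
miR-34a: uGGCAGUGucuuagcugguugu
miR-34b-5p: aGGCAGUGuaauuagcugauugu
miR-181a: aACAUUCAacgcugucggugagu
miR-181b: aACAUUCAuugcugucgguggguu
miR-301a: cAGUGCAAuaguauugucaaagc
miR-326: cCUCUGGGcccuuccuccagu
miR-490-3p: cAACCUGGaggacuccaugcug

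The second set holds the miR-29 family, whose members share a seed and of which miR-29b and miR-29c were called higher and miR-29a was not called, followed by miRNAs that were lower in SST cells.
miR-29a: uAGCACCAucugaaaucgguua
miR-29b: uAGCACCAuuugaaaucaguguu
miR-29c: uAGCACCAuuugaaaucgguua
miR-128: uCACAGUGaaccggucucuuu
miR-221: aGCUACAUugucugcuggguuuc
miR-222: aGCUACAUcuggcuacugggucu
miR-135a: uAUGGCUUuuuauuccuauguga
miR-126-3p: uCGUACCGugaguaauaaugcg
miR-451: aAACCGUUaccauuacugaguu

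Counted from 1 at the 5′ end, miR-7a and miR-7b differ at 1 shared position, A10U, outside the seed. miR-29a and miR-29c differ by C10U alone. miR-221 and miR-222 match at 11 of 23 positions, and their hairpins lie next to each other on the minus strand of chrX:19146294-19146388 and chrX:19146893-19146971 (GRCm38.p6). By GENCODE M21 on the same genome, several hairpins lie in introns of protein-coding genes. Those of miR-128 lie in R3hdm1 (chr1:128202361-128202430, plus strand) and in Arpp21 (chr9:112118636-112118711, minus strand), that of miR-301a in Ska2 (chr11:87113004-87113089, plus strand), that of miR-326 in Arrb1 (chr7:99552269-99552363, plus strand), and that of miR-490 in Chrm2 (chr6:36421742-36421825, plus strand). 1 of the hairpins of miR-7a lies in an intron of Hnrnpk (chr13:58392779-58392886, minus strand).

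The unit of level is RPM, miRNA reads out of 1000000, which measures a miRNA's part of the pool rather than its amount in a cell. Fewer cells of a type and less RNA per cell cannot be told apart in such pools. SST libraries held 1278770 and 2457681 miRNA reads, with 460 and 470 of 528 miRNA names detected, and Neocortex libraries held 2149027 to 10798552 reads with 467 to 510 names detected. A floor of 3 reads stood at 2.35 and 1.22 RPM in the SST libraries and at 0.278 to 1.40 RPM in the Neocortex libraries, and such floors cover counting error only. The spread between replicates exceeded counting error: chi-square divided by its degrees of freedom was 63.2 between the SST libraries and 266 to 739 between pairs of Neocortex libraries.

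The first question was which miRNAs SST cells carried. miR-29b, a miRNA that accumulates as neurons mature, was the most abundant in SST cells with 18.0% ± 0.348 of reads, against 7.84% ± 1.56 in Neocortex (SD, n = 2 and 3). miR-124, the most abundant miRNA of neurons and the first of Neocortex, came second in SST cells with 15.4% ± 0.193, against 17.7% ± 3.74 in Neocortex. The 10 most abundant miRNAs of SST cells were miR-29b, miR-124, miR-9, miR-29a, miR-181a, miR-26a, miR-22, miR-376a, miR-29c and miR-125b-5p. They made up 63.1% and 64.3% of reads in the SST libraries and 49.4% to 54.6% in the Neocortex libraries. As they were picked by their level in SST cells, a larger share there follows from the choice. The 10 most abundant of each library itself made up 63.1% to 64.4% in SST libraries and 62.7% to 67.5% in Neocortex libraries.

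miR-29b had 177550 and 182469 RPM in SST libraries, against 96147, 66676 and 72300 RPM in Neocortex libraries. It was 2.33-fold higher in SST cells (log2 change 1.22 ± 0.18 SE, limma adjusted p = 1.23e-05), and the groups did not overlap. miR-29a, which shares its seed, had 52884 and 60206 RPM in SST libraries and 66555, 72359 and 52411 RPM in Neocortex libraries, with a log2 change of -0.16 ± 0.17 (limma adjusted p = 0.448). The third member, miR-29c, had a log2 change of 0.62 ± 0.18 (limma adjusted p = 0.00764) and lost the call in 7 of 13 alternative settings, where its adjusted p ranged from 0.00169 to 0.353 over the 13. Without SST replicate 2 the adjusted p of miR-29c was 0.0856 in limma. Summed over the 3 members, the seed stood at 252497 and 268298 RPM in SST libraries and at 137838 to 177614 RPM in Neocortex libraries. With star arms counted, 3 of the 7 tested arms of the family were higher and 4 were not called, with a median log2 change of 0.62, where 31.0% of all tested miRNAs were called higher. These counts depend on the scaling: with TMM factors, which rescale each library by its trimmed mean of ratios, 2 were higher and 2 lower (median 0.32), and with DESeq2 size factors 2 were higher and 3 lower (0.26). miR-29a was called lower in 4 of 13 alternatives, with a log2 change of -0.54 and an adjusted p of 0.0171 in DESeq2.

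Among the 10 most abundant miRNAs of SST cells, miR-181a had the largest rise, to 45148 and 48424 RPM in SST libraries against 10656, 11775 and 17692 RPM in Neocortex libraries. It was 3.58-fold higher in SST cells (log2 change 1.84 ± 0.21, limma adjusted p = 4.45e-07). This miRNA held the 5th place in SST cells and the 15th in Neocortex. miR-181b, with the same seed, had 11240 and 12609 RPM in SST libraries against 2383 to 2553 RPM in Neocortex libraries (log2 change 2.28 ± 0.15, limma adjusted p = 4.53e-10). Of the 10 tested arms of the miR-181 family, 3 were higher and 1 lower, with a median of 0.41. That share of higher calls is near the 31.0% over all tested miRNAs. Of the other abundant miRNAs, miR-125b-5p (log2 change 1.28 ± 0.28, limma adjusted p = 7.12e-04) and miR-376a of the Dlk1-Dio3 domain (0.96 ± 0.21, limma adjusted p = 7.06e-04) were higher. miR-22 was lower (log2 change -0.93 ± 0.19, limma adjusted p = 2.71e-04).

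miR-124, miR-9 and miR-26a did not pass the test, with log2 changes of -0.18 ± 0.18, 0.06 ± 0.16 and 0.13 ± 0.22 (limma adjusted p = 0.421, 0.794 and 0.650). After division by TMM factors, miR-124 was called lower in SST cells with a log2 change of -0.48 (limma adjusted p = 0.0478, and 0.0101 to 0.961 over 13 alternatives).

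Across all miRNAs, 274 of 522 tested passed an adjusted p of 0.05 (limma with Benjamini-Hochberg adjustment), or 52.5%. Of these, 162 were higher in SST cells, 31.0% of those tested, and 112 were lower, 21.5%. A change of at least 2-fold was seen for 226 of them, 130 higher and 96 lower. The miRNAs called higher made up 47.0% and 48.1% of reads in SST libraries and 18.5% to 21.5% in Neocortex libraries, and those called lower made up 14.9% and 13.7% in SST libraries and 38.3% to 42.0% in Neocortex libraries. The median log2 change of all tested miRNAs was 0.13, and dividing by TMM or DESeq2 size factors moved it to -0.07 or -0.13. With TMM factors the calls were 134 higher and 135 lower, with DESeq2 size factors 127 and 139, so the share of calls that were higher went down to 49.8% or 47.7%, against 59.1% without them.

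**Figure D1:**
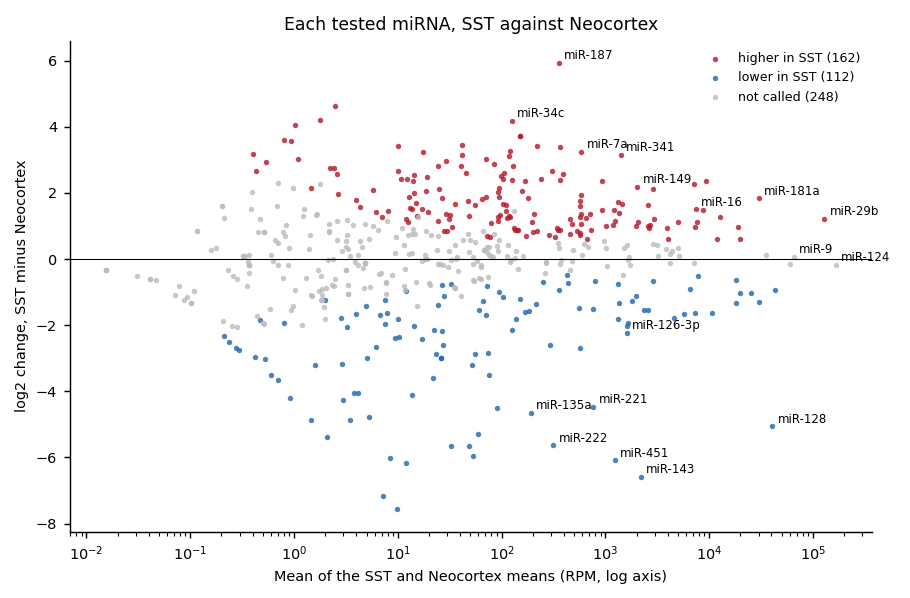
Each point is 1 of 522 tested miRNAs, with the mean of the SST and Neocortex means in RPM on a log axis and the fitted log2 change, SST minus Neocortex, on the vertical axis. Red points were called higher in SST cells (162), blue points lower (112) and grey points were not called (248). miR-187 lies at the top with 5.93, miR-143, miR-451 and miR-222 lie lowest among the labelled miRNAs, and miR-124 and miR-9 lie near 0.

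The libraries of the 2 groups did not overlap for 334 of the 522 tested miRNAs, nor for 270 of the 274 called ones. A lack of overlap thus adds little to a call. At a mean of at least 100 RPM over both groups and with no overlap between libraries, 89 called miRNAs were higher in SST cells and 44 were lower. The 12 with the largest change in each direction are described next, and all 24 kept their call in each of 13 alternative settings, which were other scalings, tests, samples and a larger pseudocount, but not other filters (highest limma, edgeR or DESeq2 adjusted p = 0.0101).

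miR-187 had the largest rise, with 551 and 855 RPM in SST libraries against 9.77, 7.56 and 18.9 RPM in Neocortex libraries. It was 60.9-fold higher in SST cells (log2 change 5.93 ± 0.51, limma adjusted p = 1.11e-08). The lowest SST library stood far above the highest Neocortex library.

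miR-34c, a member of the miR-34 family that p53 induces and that ciliated epithelia also express, had 232 and 243 RPM in SST libraries against 10.2, 10.5 and 20.6 RPM in Neocortex libraries. The rise was 18.1-fold (log2 change 4.18 ± 0.30, limma adjusted p = 1.16e-09). The SST libraries lay close to each other. Its hairpin neighbour miR-34b-5p had 53.2 and 49.6 RPM in SST libraries against 6.98, 4.88 and 7.87 RPM in Neocortex libraries (log2 change 2.97 ± 0.34, limma adjusted p = 4.53e-07). miR-34a, which has the same seed and a gene of its own on another chromosome, had 1620 and 1475 RPM in SST libraries against 323, 183 and 467 RPM in Neocortex libraries (log2 change 2.35 ± 0.28, limma adjusted p = 8.44e-07). All 3 guides of the family were therefore higher in SST cells, with miR-34a the most abundant of them. The other 3 of its 6 tested arms were not called, where 31.0% of all tested miRNAs were called higher.

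miR-7a, a deeply conserved miRNA that the circular RNA Cdr1as binds, had 1252 and 877 RPM in SST libraries against 87.5, 116 and 130 RPM in Neocortex libraries. It was 9.53-fold higher (log2 change 3.25 ± 0.33, limma adjusted p = 1.08e-07). miR-7b had 478 and 334 RPM in SST libraries against 27.5, 41.7 and 44.9 RPM in Neocortex libraries, a 10.7-fold rise (log2 change 3.42 ± 0.35, limma adjusted p = 1.10e-07). Both miRNAs were higher in SST replicate 1 than in SST replicate 2, and neither group overlapped the other. Summed, their seed stood at 1730 and 1211 RPM in SST libraries and at 115 to 175 RPM in Neocortex libraries. Of the 5 tested arms of the family, 2 were higher and 1 lower, with a median of 0.01, where 31.0% of all tested miRNAs were called higher and 21.5% lower.

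miR-301a of Ska2 had 766 and 564 RPM in SST libraries against 53.1, 68.8 and 68.6 RPM in Neocortex libraries (log2 change 3.38 ± 0.23, limma adjusted p = 5.61e-10). miR-326 of Arrb1 had 270 and 171 RPM in SST libraries against 20.0, 26.8 and 19.7 RPM in Neocortex libraries (log2 change 3.28 ± 0.41, limma adjusted p = 1.57e-06). Both arms of miR-490, whose hairpin lies in an intron of Chrm2, the gene of a muscarinic receptor, were among the 12. miR-490-3p had 207 and 245 RPM in SST libraries against 26.8 to 38.8 RPM in Neocortex libraries (log2 change 2.81 ± 0.45), and miR-490-5p had 229 and 188 RPM in SST libraries against 16.02 to 33.5 RPM in Neocortex libraries (3.12 ± 0.55). Their limma adjusted p were 2.63e-05 and 7.55e-05.

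miR-341 and miR-134 come from the imprinted Dlk1-Dio3 domain. miR-341 had 2153 and 2889 RPM in SST libraries against 460, 196 and 248 RPM in Neocortex libraries (log2 change 3.15 ± 0.39, limma adjusted p = 1.57e-06). miR-134, which restrains dendritic spine growth in hippocampal neurons, had 372 and 698 RPM in SST libraries against 93.1, 90.0 and 62.0 RPM in Neocortex libraries (log2 change 2.66 ± 0.26, limma adjusted p = 8.37e-08). The remaining 2 names, miR-486 and miR-3107, had near-identical values in every library and count as 1 measurement. miR-486 had 250 and 314 RPM in SST libraries against 19.5 to 24.2 RPM in Neocortex libraries (log2 change 3.72 ± 0.28, limma adjusted p = 1.52e-09).

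**Figure D2:**
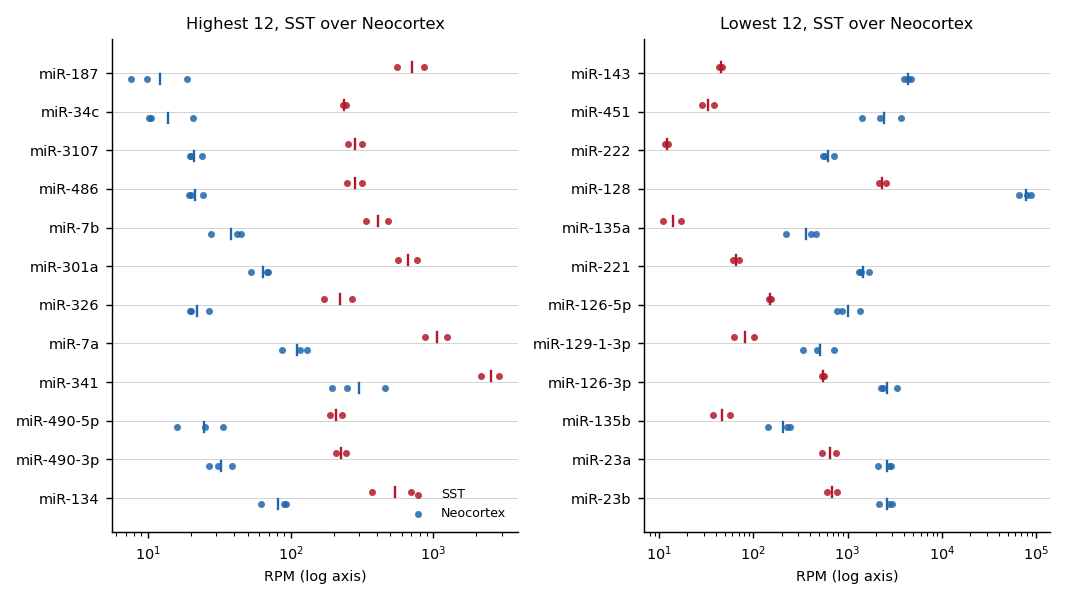
Points are single libraries in RPM on a log axis, red for SST (n = 2) and blue for Neocortex (n = 3), and short bars are group means. The left panel shows the 12 miRNAs with the largest rise and the right panel the 12 with the largest fall, from miR-187 and miR-143 at the top, and in no row do the groups overlap.

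The largest fall was that of miR-143, a miRNA of smooth muscle and pericytes, with 43.8 and 47.2 RPM in SST libraries against 4428, 4694 and 3984 RPM in Neocortex libraries. It was 95.7-fold lower in SST cells (log2 change -6.58 ± 0.19, limma adjusted p = 1.42e-16). miR-451 of red blood cells, which Ago2 itself cuts from its hairpin, had 38.3 and 28.5 RPM in SST libraries against 1432, 2208 and 3652 RPM in Neocortex libraries (log2 change -6.09 ± 0.33, limma adjusted p = 1.16e-11). The endothelial miRNA of the Egfl7 gene was lower in both arms, with 568 and 542 RPM of miR-126-3p in SST libraries against 2288, 2366 and 3313 RPM in Neocortex libraries (log2 change -2.24 ± 0.17, limma adjusted p = 1.76e-09). miR-126-5p had a log2 change of -2.70 ± 0.29 (limma adjusted p = 2.51e-07). These miRNAs mark cells that lie outside the neuronal lineage.

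miR-128, a brain miRNA that dampens neuronal excitability in mice, had 2144 and 2545 RPM in SST libraries against 80894, 89151 and 65403 RPM in Neocortex libraries. It was 33.3-fold lower (log2 change -5.06 ± 0.22, limma adjusted p = 2.28e-13). miR-128 was the second most abundant miRNA of Neocortex, where it held 7.85% of reads on average.

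miR-222 had 11.7 and 12.6 RPM in SST libraries against 551, 580 and 715 RPM in Neocortex libraries, a 49.9-fold difference (log2 change -5.64 ± 0.33, limma adjusted p = 3.62e-11). miR-221, its neighbour on the X chromosome with the same seed, had 71.2 and 61.0 RPM in SST libraries against 1396, 1309 and 1706 RPM in Neocortex libraries (log2 change -4.47 ± 0.41, limma adjusted p = 3.08e-08). Summed over both, the seed stood at 82.9 and 73.7 RPM in SST libraries and at 1889 to 2421 RPM in Neocortex libraries. All 4 arms of the pair were called lower, where 21.5% of all tested miRNAs were. The star arms miR-221* and miR-222* averaged only 0.5 and 1.5 reads in SST libraries.

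miR-135a had 17.2 and 11.0 RPM in SST libraries against 225, 466 and 409 RPM in Neocortex libraries (log2 change -4.66 ± 0.45, limma adjusted p = 5.44e-08), and miR-135b fell less (-2.14 ± 0.43, limma adjusted p = 3.18e-04). miR-129-1-3p had a log2 change of -2.61 ± 0.32 (limma adjusted p = 1.10e-06). miR-23a and miR-23b, which share a seed and lie in a pair of sister clusters with miR-24 and miR-27, fell by 2.01 and 1.94 on the log2 scale (SE 0.28 and 0.27, limma adjusted p = 6.15e-06 and 5.05e-06).

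The label of the SST libraries was set against lists of miRNAs that mark cell types. Neuronal miRNAs were abundant in both groups: the 26 listed arms summed to 275732 and 275121 RPM in SST libraries and to 349805 to 428019 RPM in Neocortex libraries. Of these arms, 7 were higher in SST cells, 9 lower and 10 not called, against 31.0% higher and 21.5% lower over all tested miRNAs. With TMM factors 5 were higher and 13 lower, with a median log2 change of -0.72. Without such factors the median was -0.42, or -0.24 with members that were at 0 in a group set to the 3-read floor, against 0.13 over all tested miRNAs. The list held miR-149, miR-153, miR-136 and miR-487b beyond the neuronal markers first set down (miR-124, miR-128, miR-9, miR-137, miR-138, miR-129 and miR-218). Every arm called lower came from those first markers, but of the arms called higher only miR-138 and miR-129-5p did. miR-136 and miR-487b also count in the Dlk1-Dio3 domain below.

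Among the neuronal miRNAs that were higher, miR-149 of Gpc1 had 3339 and 3284 RPM in SST libraries against 532, 838 and 875 RPM in Neocortex libraries (log2 change 2.18 ± 0.26, limma adjusted p = 1.03e-06). miR-138, which limits the size of dendritic spines, had 11987 and 13643 RPM in SST libraries against 4717, 3536 and 5745 RPM in Neocortex libraries (1.48 ± 0.26, limma adjusted p = 8.04e-05). miR-149*, miR-136, miR-487b, miR-129-5p and miR-153 were also called, with log2 changes of 3.59, 1.05, 0.95, 0.87 and 0.60. miR-149* rested on at most 2.35 RPM in any library, and miR-153 and miR-129-5p lost the call in 8 and 6 of 13 alternatives (highest adjusted p = 0.462 and 0.110). In the fit of the 2 groups alone miR-136 and miR-487b had a limma adjusted p of 0.0505 and 0.0547, and in DESeq2 miR-149* had an adjusted p of 0.0989. Without SST replicate 1 or Neocortex replicate 2, miR-153 had a limma adjusted p of 0.370 or 0.146. Beside miR-128, miR-129-1-3p and miR-218-2* (log2 change -1.97 ± 0.46), the neuronal miRNAs that fell were arms of miR-124, miR-9, miR-137, miR-128-2, miR-129-2 and miR-218.

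No marker of oligodendrocytes was higher in SST cells, and 4 of 5 arms tested were lower, where 21.5% of all tested miRNAs were called lower. miR-219-3p, an arm of the oligodendrocyte miRNA miR-219, had 3.13 and 2.44 RPM in SST libraries against 123, 85.4 and 137 RPM in Neocortex libraries (log2 change -5.30 ± 0.51, limma adjusted p = 5.16e-08). miR-338-3p, of the same lineage, fell less, to 932 and 1154 RPM in SST libraries against 3139, 1934 and 2577 RPM in Neocortex libraries (-1.27 ± 0.19, limma adjusted p = 9.68e-06). The summed list stood at 1011 and 1219 RPM in SST libraries and at 2155 to 3401 RPM in Neocortex libraries, with a median of -1.27.

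The 3 endothelial and mural arms were all lower, with a median of -2.70, and summed to 766 and 734 RPM in SST libraries and to 7841 to 8178 RPM in Neocortex libraries. Leukocyte and microglia markers were lower in 5 of 7 arms tested and higher in none, with a median of -2.85. Over all tested miRNAs 21.5% were called lower. miR-142-3p of blood lineages was at 0 in both SST libraries, against 14.9, 17.1 and 26.8 RPM in Neocortex libraries, and was at least 8.35-fold lower against the floor of 3 reads in the shallower SST library. miR-142-5p (log2 change -5.66 ± 0.93, limma adjusted p = 3.63e-05), miR-150 of lymphocytes (-4.51 ± 0.46, limma adjusted p = 1.16e-07) and miR-146a (-2.85 ± 0.88, limma adjusted p = 0.00973) were lower too, and without SST replicate 1 the adjusted p of miR-146a was 0.0679.

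Of the 5 arms of red blood cell miRNAs, 4 were lower, among them miR-144, the cluster neighbour of miR-451, with 0.782 and 2.85 RPM in SST libraries against 79.6, 138 and 94.6 RPM in Neocortex libraries (log2 change -5.97 ± 0.65, limma adjusted p = 2.82e-07). The exception was miR-486, described above, which rose. The median of the list was -3.66, or -1.23 with members at 0 placed at the floor, and 21.5% of all tested miRNAs were called lower.

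The list of ependyma and choroid plexus had 3 of 6 arms higher, 1 lower and a median of 1.23, where 31.0% of all tested miRNAs were called higher and 21.5% lower, so a list of this size is not set apart by its counts. Its summed level was 425 and 430 RPM in SST libraries, most of it miR-34c and miR-34b-5p, and 97.4 to 125 RPM in Neocortex libraries, most of it the arms of miR-204. miR-204 of Trpm3, an abundant miRNA of the choroid plexus, had 129 and 127 RPM in SST libraries against 57.2, 50.3 and 67.6 RPM in Neocortex libraries (log2 change 1.14 ± 0.32, limma adjusted p = 0.00534), while its star arm was lower, at 3.91 and 6.92 RPM in SST libraries against 25.2 to 30.7 RPM in Neocortex libraries (-2.43 ± 0.47). The part of ependymal or choroid RNA in the rise of miR-34c was not tested. The miRNAs listed for astrocytes, which other cells express as well, were higher in 0 and lower in 3 of 10 arms (3 calls in limma, 1 in DESeq2), a share of lower calls near the 21.5% over all tested miRNAs, with a median of -1.47, or -0.31 with zeros at the floor.

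**Figure D3:**
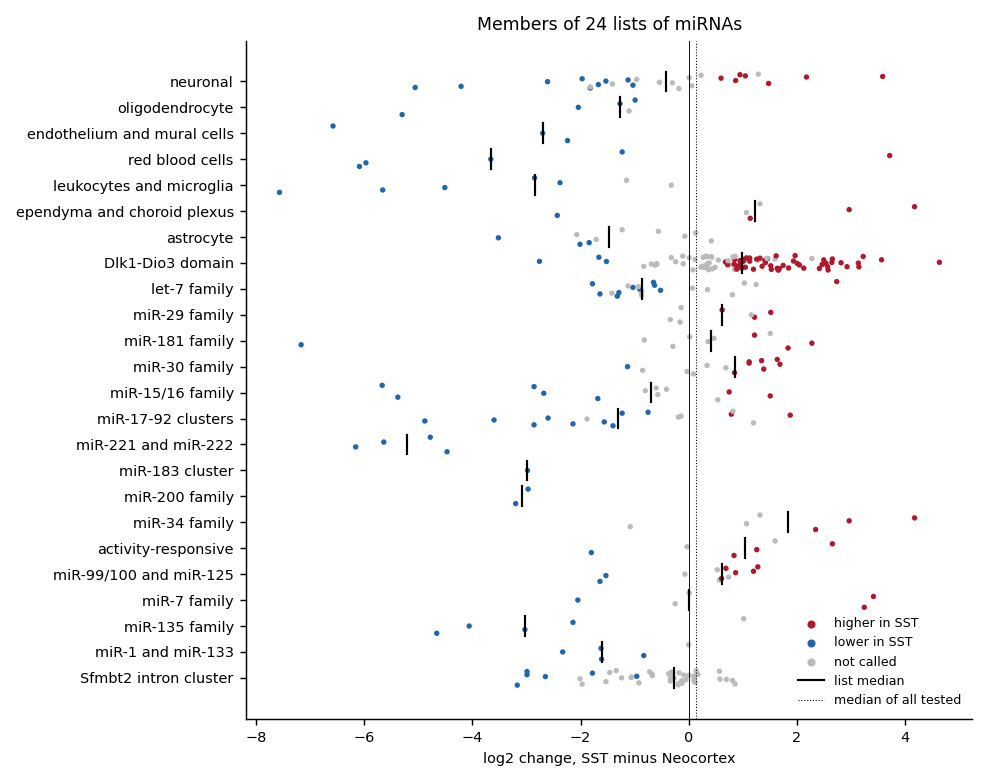
Each point is 1 tested member of 1 of 24 lists, placed by its log2 change, SST minus Neocortex, with red for called higher in SST cells, blue for called lower and grey for not called. Black bars are list medians and the dotted line is the median of all tested miRNAs, 0.13. The glial, vascular and blood lists lie mainly to the left, and the Dlk1-Dio3 domain mainly to the right.

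The imprinted Dlk1-Dio3 domain on chromosome 12, whose miRNAs are made from the maternal chromosome in long clusters, supplied 93 of the tested arms. In SST cells 54 of them were higher, 3 were lower and 36 were not called, against 31.0% higher and 21.5% lower over all tested miRNAs. The median log2 change of the 93 arms was 0.99. After division by TMM factors 46 were higher and 6 lower, with a median of 0.71. Together they made up 93158 and 104304 RPM in SST libraries and 52434 to 60617 RPM in Neocortex libraries. In the anti-Myc groups described below, they made up 85392 to 97387 RPM in Gad2, 71051 to 84462 RPM in Camk2a and 67027 to 74456 RPM in PV libraries. The level in Gad2 cells was thus near that in SST cells. Against the mean of those groups 26 of the 93 arms were higher and 2 lower, with a median of 0.52. That is near the 28.9% higher and the median of 0.49 over all tested miRNAs, of which 7.28% were lower. With TMM factors 5 of the 93 arms were higher and 10 lower (median 0.03), against 67 and 79 of all 522 tested. Against Neocortex, beside miR-341, the largest called changes at 10 RPM or more were those of miR-412-3p (log2 change 3.23 ± 0.46), miR-543 (3.14 ± 0.40) and miR-495 (2.82 ± 0.47), with limma adjusted p of 7.54e-06, 1.99e-06 and 3.85e-05. Against the rest went miR-376c, with 298 and 509 RPM in SST libraries against 961, 1259 and 1154 RPM in Neocortex libraries (log2 change -1.52 ± 0.21, limma adjusted p = 5.74e-06). The other 2 that were lower, miR-376c* and miR-377*, had at most 7.08 RPM in any library and lost the call in 5 and 2 of 13 alternatives (highest adjusted p = 0.243 and 0.0983). Without SST replicate 1 their limma adjusted p were 0.0709 and 0.0983, without SST replicate 2 that of miR-376c* was 0.0706, and without Neocortex replicate 2 that of miR-377* was 0.0540.

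let-7 miRNAs, which time differentiation and are abundant in mature neurons, had 9 of 21 arms lower in SST cells, 1 higher and 11 not called, with a median of -0.87, against 21.5% lower and 31.0% higher over all tested miRNAs. With TMM factors 11 arms were lower. let-7i had 1760 and 2383 RPM in SST libraries against 6693, 6304 and 8257 RPM in Neocortex libraries (log2 change -1.78 ± 0.19, limma adjusted p = 2.71e-07). let-7b, let-7a and let-7c had log2 changes of -1.64, -1.32 and -1.29. The exception, miR-98*, had 4.69 and 3.26 RPM in SST libraries against 0.465 to 0.556 RPM in Neocortex libraries.

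miR-99a and miR-100, which share a seed and lie beside let-7 and miR-125b hairpins, were lower, while miR-125 guides were higher. miR-99a had 2995 and 4119 RPM in SST libraries against 11806, 12188 and 9074 RPM in Neocortex libraries (log2 change -1.64 ± 0.18, limma adjusted p = 2.94e-07), and miR-100 had a log2 change of -1.53 ± 0.14 (limma adjusted p = 3.66e-08). miR-125a-5p had 4880 and 3306 RPM in SST libraries against 1983, 1944 and 1383 RPM in Neocortex libraries (1.2 ± 0.25, limma adjusted p = 4.12e-04). In all, 5 of the 11 arms of miR-99, miR-100 and miR-125 were higher and 2 lower, or 3 and 2 with TMM factors. Without these factors, 31.0% of all tested miRNAs were called higher and 21.5% lower.

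The miR-15/16 family had 2 of 12 tested arms higher and 5 lower, against 31.0% higher and 21.5% lower over all tested miRNAs, and a median of -0.70, or -0.59 with zeros at the floor. miR-16 had 11642 and 10346 RPM in SST libraries against 3187, 4088 and 4377 RPM in Neocortex libraries (log2 change 1.51 ± 0.25, limma adjusted p = 3.40e-05). miR-15b, from the same cluster as 1 copy of miR-16, had 31.3 and 34.6 RPM in SST libraries against 84.7, 143 and 96.6 RPM in Neocortex libraries (-1.68 ± 0.35, limma adjusted p = 3.96e-04). Both arms of miR-322 were lower (log2 changes -2.86 for miR-322 and -5.67 for miR-322*). miR-195 had a log2 change of 0.75 ± 0.24 (limma adjusted p = 0.0136, and 0.00646 to 0.242 over 13 alternatives, with 0.242 without SST replicate 1 and 0.0525 without Neocortex replicate 1).

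Members of the miR-17-92 clusters, known for their role in proliferating cells, were lower in 9 of 16 arms and higher in 2, against 21.5% lower and 31.0% higher over all tested miRNAs. Their median was -1.31, or -0.99 with zeros at the floor. Their summed level did not fall, at 984 and 919 RPM in SST libraries and 797 to 1163 RPM in Neocortex libraries. miR-19b, miR-17*, miR-92a and miR-18a fell by 3.60, 2.86, 2.60 and 2.14 on the log2 scale, and each stood below 11 RPM in both SST libraries. The exceptions were miR-106b* (log2 change 1.88 ± 0.40) and miR-93 (0.79 ± 0.25), of which miR-93 lost the call in 8 of 13 alternatives (highest adjusted p = 0.256), with a limma adjusted p of 0.0679 without SST replicate 1 and of 0.0712 without Neocortex replicate 2.

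The miR-30 family, counted with miR-384, was higher in 7 of 13 arms and lower in 1, with a median of 0.85, against 31.0% higher and 21.5% lower over all tested miRNAs. miR-384-5p had 4551 and 3128 RPM in SST libraries against 1156, 742 and 2056 RPM in Neocortex libraries (log2 change 1.64 ± 0.31, limma adjusted p = 1.39e-04), and miR-30d*, miR-30c and miR-384-3p had log2 changes of 1.69, 1.39 and 1.35. Among the 6 arms listed as activity-responsive, 3 were higher and 1 lower, counts near the shares over all tested miRNAs (31.0% higher and 21.5% lower), with a median of 1.05, or 0.42 with zeros at the floor. Of these, miR-134, miR-212-3p (1.26 ± 0.33) and miR-132 (0.84 ± 0.24) were higher and miR-132* was lower (-1.80 ± 0.28). The call on miR-132 was lost in 3 of 13 alternatives, and without SST replicate 1 the limma adjusted p was 0.15 for miR-132 and 0.0748 for miR-212-3p.

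The remaining lists were smaller or low. Over all tested miRNAs 31.0% were called higher and 21.5% lower. All 4 called arms of the 5 in the miR-135 family were lower (median -3.03, or -2.14 with zeros at the floor). Of the 5 arms of the muscle miRNAs miR-1 and miR-133, 4 were lower, with log2 changes of -1.61 for miR-1, -0.83 for miR-133a and -1.62 for miR-133b (list median -1.61, or -0.83 with zeros at the floor). The cluster in an intron of Sfmbt2 had 6 of 47 arms lower and none higher by limma (8 lower and 0 higher by DESeq2). By limma its share of lower calls was below that over all tested miRNAs. Its median was -0.27, or -0.18 with zeros at the floor. Its named members miR-669a-3p, miR-669o-3p (identical to it in all libraries), miR-467c and miR-467d stood at or below 11.0 RPM in SST libraries. Of these, miR-467d had a limma adjusted p of 0.0422, and of 0.391, 0.0975 or 0.107 without SST replicate 2, Neocortex replicate 2 or Neocortex replicate 3. The miR-183 cluster was represented by miR-182 alone (-2.99). The miR-200 family was represented by the arms of miR-141, which had 3.91 and 1.63 RPM in SST libraries against 5.58, 288 and 8.52 RPM in Neocortex libraries, so that Neocortex replicate 2 stood far above the other two. miR-141 had a log2 change of -3.20 (limma adjusted p = 0.0268), which was -1.41 without Neocortex replicate 2 (limma adjusted p = 0.188) and -2.59 without SST replicate 2 (0.176).

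A second comparison kept the antibody and the tissue alike. It set SST cells against the mean of the 3 other neuron groups of the neocortex from which Ago2 was pulled down with anti-Myc: Camk2a cells (excitatory neurons; n = 3 libraries of 1 neocortex each, C57BL/6 & BALB/c), Gad2 cells (GABAergic neurons, which include SST cells; n = 3 of 4 pooled, C57BL/6 & 129) and PV cells (parvalbumin interneurons; n = 2 of 4 pooled, C57BL/6 & 129). It shares the SST libraries with the first comparison. By limma, 189 of 522 miRNAs were called, or 36.2%, with 151 higher in SST cells (28.9%) and 38 lower (7.28%). The median log2 change was 0.49, and TMM factors moved it to 0.00 and the calls to 67 higher and 79 lower, so the balance of directions depends on the scaling. Without SST replicate 1 there were 121 calls. The 6 highest and the 6 lowest miRNAs at 100 RPM or more, with no overlap between SST and the other 8 libraries, kept their calls in each of 10 alternatives (highest adjusted p = 0.0445 over limma, edgeR and DESeq2).

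miR-187 stood apart here too, at 703 ± 215 RPM in SST cells, against 4.83 ± 0.577 RPM in Camk2a cells, 172 ± 32.3 RPM in Gad2 cells and 7.97 ± 0.346 RPM in PV cells (log2 change 5.18 ± 0.44, limma adjusted p = 2.40e-08). miR-7a averaged 1064 ± 265 RPM in SST cells, against 233 ± 88.5 in Camk2a cells, 299 ± 106 in Gad2 cells and 69.3 ± 12.98 in PV cells (2.68 ± 0.29, limma adjusted p = 3.75e-07). miR-34c (2.69 ± 0.26), miR-7b (2.71 ± 0.30) and miR-181a (2.0 ± 0.18) were also among the highest, with limma adjusted p of 1.43e-07, 5.91e-07 and 5.07e-08. miR-187, miR-7a, miR-34c, miR-7b and miR-181a were thus higher in SST cells than in libraries made with the same antibody. Not all miRNAs with the largest rise against Neocortex were. miR-301a, miR-486, miR-3107 and miR-490-3p were called higher in 10 of 10 alternatives, miR-341 in 8 and miR-490-5p in 6. miR-134 was called in 4, with log2 changes of 0.33 to 1.31 over the alternatives. miR-326 was called in 0, with log2 changes of 0.16 to 1.08.

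The sixth of the miRNAs highest against the anti-Myc groups was miR-551b. It stood at 692 ± 18.9 RPM in SST cells, 588 ± 40.7 RPM in Camk2a cells, 566 ± 96.7 RPM in Gad2 cells and 15.5 ± 0.330 RPM in PV cells (log2 change 2.0 ± 0.27, limma adjusted p = 8.22e-06). The widest gap was that to PV cells, and against Neocortex it had a log2 change of 0.47 ± 0.31 (limma adjusted p = 0.220, and 0.0395 without Neocortex replicate 3).

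The 6 lowest were miR-133a, miR-1, miR-218, miR-129-1-3p, miR-378 and miR-124. miR-133a averaged 51.6 ± 1.08 RPM in SST cells, against 128 ± 6.88 in Camk2a cells, 398 ± 44.5 in Gad2 cells and 1741 ± 441 in PV cells (log2 change -3.10 ± 0.16, limma adjusted p = 1.73e-11). miR-218, encoded in introns of the Slit genes, averaged 1245 ± 270 RPM in SST cells, against 6004 ± 620 in Camk2a cells, 2094 ± 508 in Gad2 cells and 6502 ± 81.1 in PV cells (-1.81 ± 0.19, limma adjusted p = 3.39e-07). miR-124 averaged 154026 ± 1934 RPM in SST cells, against 204573 ± 19937 in Camk2a cells, 265146 ± 20080 in Gad2 cells and 342179 ± 29080 in PV cells (-0.78 ± 0.15, limma adjusted p = 4.35e-04). SST cells thus had the lowest share of miR-124 among these groups.

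miR-34a, higher in SST cells than in Neocortex, was lower than in the same-antibody groups, at 1547 ± 103 RPM in SST cells, against 1034 ± 162 in Camk2a cells, 3902 ± 1173 in Gad2 cells and 11877 ± 147 in PV cells (log2 change -1.22 ± 0.24, limma adjusted p = 5.13e-04). It was the mean of 3 groups that stood above SST cells, since the mean of Camk2a cells did not.

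The miRNAs that fell most against Neocortex took different levels in the same-antibody groups. miR-128 averaged 2344 ± 283 RPM in SST cells, 153461 ± 14821 RPM in Camk2a cells, 9122 ± 3497 RPM in Gad2 cells and 1888 ± 155 RPM in PV cells, so its low level was shared by SST and PV cells. miR-222 showed the same order of levels, with 12.2 ± 0.625 RPM in SST cells, 726 ± 108 in Camk2a cells, 76.8 ± 41.8 in Gad2 cells and 10.6 ± 2.26 in PV cells. miR-143 stood at 45.5 RPM on average in SST cells and at 49.8, 39.2 and 94.5 RPM in Camk2a, Gad2 and PV cells, with a log2 change of -0.32 (limma adjusted p = 0.129). It was called lower than these groups in 6 of 10 alternatives, with a log2 change of -0.83 with TMM factors (limma adjusted p = 0.00123), -0.85 in DESeq2 (adjusted p = 2.94e-04) and -0.59 without the Gad2 group (limma adjusted p = 0.0106).

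miR-451 of red blood cells was lower in SST cells than in Neocortex and higher than in the same-antibody groups. It averaged 33.4 ± 6.96 RPM in SST cells, against 10.0 ± 2.08 in Camk2a cells, 11.8 ± 3.51 in Gad2 cells and 17.3 ± 3.64 in PV cells (log2 change 1.40 ± 0.29, limma adjusted p = 6.59e-04). The ependyma and choroid plexus list, whose sum was also above that of Neocortex, was called higher in 5 of 6 arms (3 with TMM factors), against 28.9% over all tested miRNAs, with a summed level of 425 to 430 RPM in SST cells, 73.1 to 99.4 RPM in Camk2a cells, 99.0 to 123 RPM in Gad2 cells and 118 to 137 RPM in PV cells. Leukocyte and microglia markers summed to 26.6 and 34.2 RPM in SST libraries. That was above Gad2 (13.8 to 25.5 RPM) and PV libraries (21.7 to 25.5 RPM) and below Camk2a libraries (38.7 to 39.9 RPM). Of the 7 arms tested 1 was called higher and 0 lower. How far RNA of other cells bears on the SST values was not tested.

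**Figure D4:**
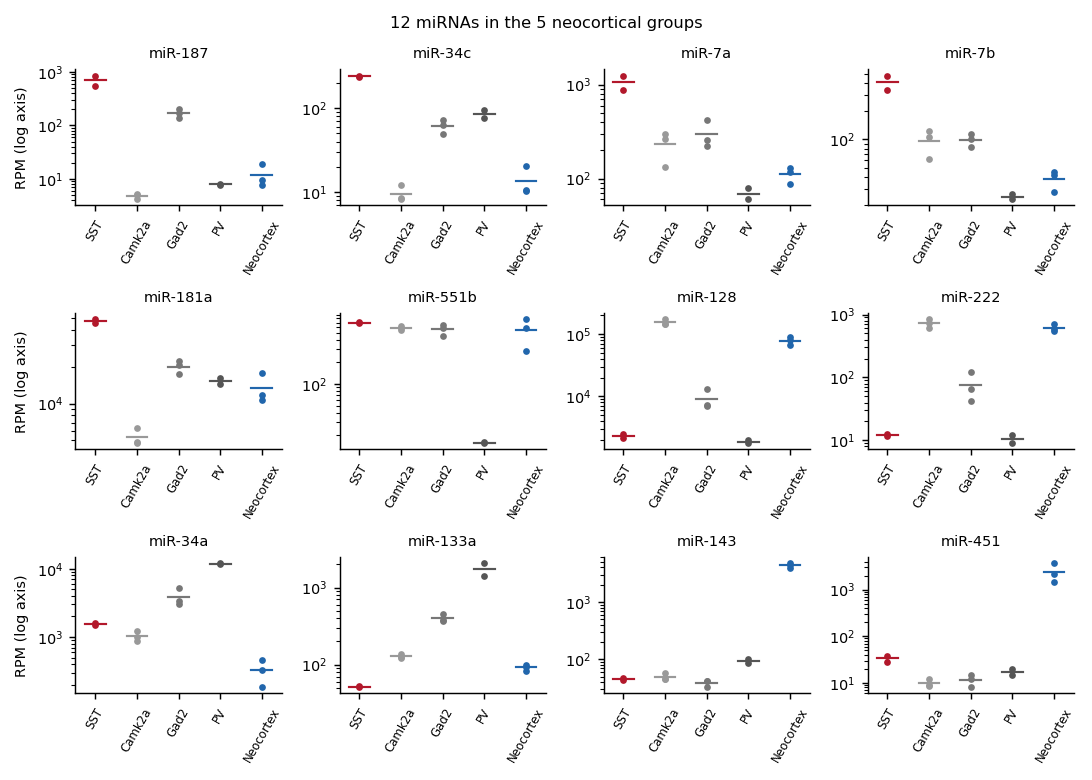
Levels of 12 miRNAs in RPM on log axes, one panel each, in SST (red), Camk2a, Gad2 and PV (greys) and Neocortex (blue). Points are libraries and bars are group means. miR-187, miR-34c, miR-7a, miR-7b and miR-181a are highest in SST, miR-128 and miR-222 are low in both SST and PV, and miR-34a is highest in PV.

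The third question was whether the 2 arms of a hairpin kept their proportion. For 179 pairs of arms with enough reads, the ratio of the minor to the major arm, as ranked over all libraries, was tested with limma. Of these ratios 74 were called, or 41.3%. Star arms of single hairpin copies, such as miR-30c-2*, were paired with the arm that all copies share. Such a pair is not a single hairpin, and the shared arm can enter more than 1 pair. The ratio was higher in SST cells in 35 of them (19.6%) and lower in 39 (21.8%). With a mean of at least 10 minor-arm reads in both groups, 46 were called, 26 higher and 20 lower. The other calls include miR-133b*, called higher with 0 reads in every SST and Neocortex library. Its ratio followed its major arm and the 0.5 added to both arms. Of 60 pairs with both arms called for their level, 51 had both arms in 1 direction and 9 had them in opposite directions. Among the 9 were miR-30c-2*, miR-7a-2* and miR-181a-2*, each paired with an arm shared between copies. The fit of the 2 groups alone called 49 ratios, and 46 were called without SST replicate 1.

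The arms concerned are shown with their seeds, since a change of arm changes the seed that is loaded.
miR-7a-1*: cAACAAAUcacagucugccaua
miR-181a-1*: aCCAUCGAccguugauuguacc
miR-181a-2*: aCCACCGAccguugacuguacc
miR-132: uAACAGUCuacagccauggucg
miR-132*: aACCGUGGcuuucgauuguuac
miR-204: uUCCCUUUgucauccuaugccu
miR-204*: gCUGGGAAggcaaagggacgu

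miR-132, induced by neuronal activity through CREB, made up 60.1% and 47.4% of the reads of its hairpin in SST libraries, against 21.2%, 13.4% and 13.8% in Neocortex libraries (log2 ratio change 2.63 ± 0.35, limma adjusted p = 2.38e-05). The 95% Wilson intervals of these shares were 57.8% to 62.4% and 45.6% to 49.2% in SST libraries and did not reach above 22.5% in Neocortex libraries, and cover counting error only. The guide rose while its partner miR-132* fell, to 558 and 612 RPM in SST libraries against 1434, 2338 and 2503 RPM in Neocortex libraries.

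miR-204* made up 2.94% and 5.18% of its hairpin's reads in SST libraries, against 34.9%, 37.2% and 27.1% in Neocortex libraries (log2 ratio change -3.51 ± 0.41, limma adjusted p = 8.09e-06). miR-7a-1* made up 3.90% and 6.83% of the reads of miR-7a and itself in SST libraries, against 39.7%, 40.2% and 34.9% in Neocortex libraries (-3.50 ± 0.49, limma adjusted p = 4.61e-05). The level of miR-7a-1* had a log2 change of -0.25 and was not called, so the change of ratio came with the rise of miR-7a. Since miR-7a is made from more than 1 hairpin and miR-7a-1* from 1, this ratio is not that of a single hairpin. The star arm of the other hairpin, miR-7a-2*, was lower (log2 change -2.05 ± 0.72, limma adjusted p = 0.0203, and 0.172 or 0.0714 without SST replicate 1 or Neocortex replicate 2).

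miR-181a likewise has 2 hairpins, on chr1:137966455-137966541 and chr2:38852735-38852810 (both plus strand, GRCm38.p6), and their star arms differ by U5C and U16C, so that each can be counted apart. miR-181a-2* was at 0 in both SST libraries, against 12.1, 15.9 and 15.1 RPM in Neocortex libraries, at least 6.12-fold lower against the floor of 3 reads in the shallower SST library. miR-181a-1* had 84.5 and 182 RPM in SST libraries and 130, 184 and 144 RPM in Neocortex libraries, with a log2 change of -0.29 (limma adjusted p = 0.429). Neither star arm rose with miR-181a.

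The other named arms with a lower share in SST cells were miR-574-3p (log2 ratio change -3.06 ± 0.76), miR-187* (-2.51 ± 0.81) and miR-30c-2* (-2.51 ± 0.42), with limma adjusted p of 0.00514, 0.0197 and 2.55e-04. miR-187* itself was 3.42 higher on the log2 scale for its level, so both arms of miR-187 rose and the major arm rose more, though the limma adjusted p of the ratio was 0.133 without SST replicate 2 and 0.0670 without Neocortex replicate 1. Those with a higher share were miR-219-5p (3.21 ± 0.41), miR-669a-5p (3.13 ± 0.50), miR-543 (2.75 ± 0.42) and miR-412-3p (2.36 ± 0.43), with limma adjusted p of 1.98e-05, 1.64e-04, 1.09e-04 and 5.41e-04. For miR-219-5p the share of 66.7% in both SST libraries rested on 12 and 18 reads of the hairpin (95% Wilson intervals 39.1% to 86.2% and 43.7% to 83.7%), against 15.9% to 18.4% in Neocortex libraries. miR-543 took 49.3% and 43.2% of its hairpin's reads in SST libraries and 8.59% to 15.3% in Neocortex libraries, and here miR-543 rose while the change of miR-543* was 0.38.

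**Figure D5:**
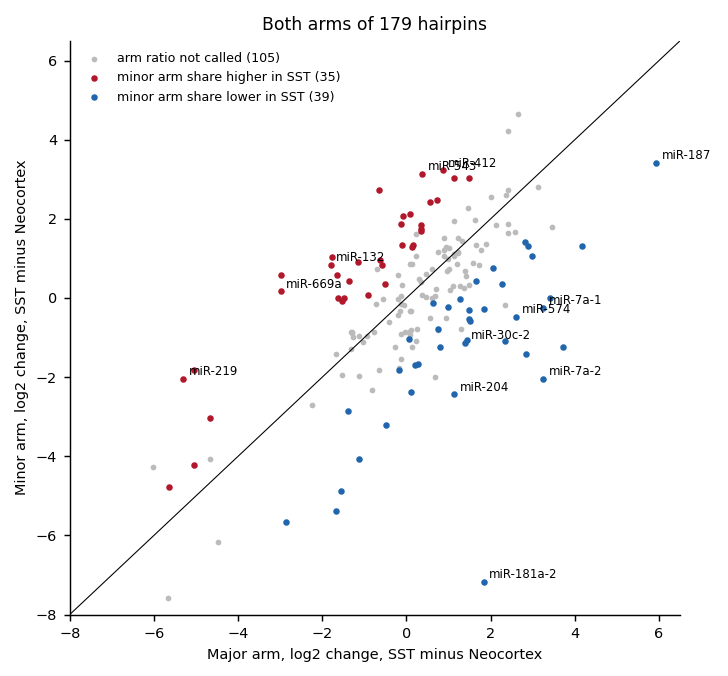
Each point is 1 of 179 pairs of arms, with the log2 change of its major arm, SST minus Neocortex, on the horizontal axis and that of its minor arm on the vertical axis. A major arm shared by several hairpin copies can stand in more than 1 pair. On the line both arms changed alike. Red points (35) have a higher ratio of the minor to the major arm in SST cells and blue points (39) a lower one, with miR-132 among the red, and miR-204 and miR-7a among the blue.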

How the data were processed

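Ago2-bound small RNAs of 19 to 24 nt were ligated to adaptors, amplified and read on the Illumina Genome Analyzer II, per the labels. The submitters' processing notes name Bowtie, without a version, and the mm9 build. The deposited signal of 528 miRNA names was scaled by the authors to a common total per library. Per the file headers it is per 1000000 reads, but the columns each sum to 10000000, and RPM here is the deposited value divided by 10. In all 19 libraries the low values were whole multiples of 1 read (100% within 0.1), from which reads and depth were recovered.

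limma 3.58.1 (R 4.3.3) tested log2(deposited value + 1) with a trend, in 1 fit of 7 group means over 19 libraries (12 residual degrees of freedom), so the spread was shared by all groups. The fit kept the 522 miRNAs that reached 1 in 2 or more libraries. Benjamini-Hochberg adjusted p-values were taken within each comparison and called under 0.05. Fold changes are on the scale of that sum, which understates those of low miRNAs. Arm ratios were log2((minor + 0.5)/(major + 0.5)) of recovered reads. A pair of arms needed 20 reads in 2 libraries and, for each arm, an average of 5. edgeR 4.0.16 and DESeq2 1.42.0 on the recovered reads were alternatives, beside other scalings, pseudocounts, filters, a replicate block and leaving out each library. The tests were tried on simulated data.

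Named miRNAs were, against Neocortex, the 12 highest and 12 lowest called at a mean of 100 RPM or more without overlap, the 10 most abundant in SST, and per list up to 4 called members at 10 RPM or more and those called against the rest of their list. Against the other anti-Myc groups, the 6 highest and 6 lowest were named, and of arm ratios 5 each way with a mean of at least 10 minor-arm reads in both groups. The anti-Myc values of miR-34a, miR-128, miR-222, miR-143 and miR-451 and the levels of some further star arms were added after their values were seen. The miRNAs and the 24 lists were chosen with earlier results of these data known. 6 sets of names were identical throughout. Names were matched to RefSeq (GRCm38.p6) and GENCODE M21, not to positions in mm9.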

Additional observations from a re-analysis of the deposited data

Results flagged for a closer look

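For 9 miRNAs the SST libraries differed in opposite directions from Neocortex and from the mean of the other anti-Myc groups (Camk2a, Gad2 and PV), with both differences past an adjusted p of 0.05 in limma. Values are log2 changes, first against Neocortex and then against the anti-Myc groups. miR-34a was higher than Neocortex (2.35) and lower than the mean of the anti-Myc groups (-1.22). The others were lower than Neocortex and higher than the mean of the anti-Myc groups, though not always higher than each group. These were miR-451 (-6.09 and 1.40), miR-322 (-2.86 and 2.89), miR-204* (-2.43 and 1.5), miR-126-5p (-2.70 and 1.02), miR-126-3p (-2.24 and 0.88) and miR-100 (-1.53 and 0.98). The endothelial and mural list, both miR-126 arms and miR-143, summed to 734 to 766 RPM in SST libraries and to more, 934 to 993 RPM, in Camk2a libraries. Its sums were 295 to 354 RPM in Gad2 libraries and 295 to 330 RPM in PV libraries. miR-338-3p (-1.27 and 0.48) and miR-99a (-1.64 and 0.48) turned to -0.04 and -0.03 against the anti-Myc groups after division by TMM factors. With these factors miR-126-5p (0.50, limma adjusted p = 0.167), miR-126-3p (0.36, 0.0919) and miR-204* (1.0, 0.0736) were not called against the anti-Myc groups either, and they kept that call in 4, 5 and 7 of 10 alternatives. Without SST replicate 1 the limma adjusted p of miR-126-5p was 0.0522. Without SST replicate 2 those of miR-204*, miR-338-3p and miR-99a were 0.144, 0.278 and 0.354. miR-34a, miR-451, miR-322 and miR-100 kept both calls in every alternative run for them. Both comparisons share the SST libraries. No group here had 4 or more libraries, so single libraries were not tested as outliers.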

How the results depend on the processing

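The number of miRNAs called against Neocortex, 274, ranged from 219 to 289 over all alternatives and from 242 to 274 when 1 library was left out. All numbers of calls higher (162) and lower (112) stayed within 1.5 times under each alternative run. Against the other anti-Myc groups, 151 higher and 38 lower became 67 and 79 with TMM factors, 67 and 80 with DESeq2 size factors, 75 and 62 in edgeR with TMM, 76 and 68 in edgeR with RLE, and 74 and 71 in DESeq2. Leaving out SST replicate 1 or 2 gave 121 or 149 calls there, 98 or 114 higher and 23 or 35 lower. Arm ratios called, 74 with 35 higher and 39 lower, became 49, with 23 higher and 26 lower, in the fit of the 2 groups alone. They ranged from 46 to 71 with 1 library left out (20 to 34 higher, 26 to 37 lower). Of the 105 named miRNAs, 20 changed their call under some alternative against Neocortex, and 48 against the anti-Myc groups. Against the anti-Myc groups, miR-338-3p (0.48) turned to -0.04, -0.05, -0.03, -0.05 and -0.05 under the scalings in the order above, miR-99a (0.48) to -0.03, -0.04, -0.01, -0.03 and -0.02, and miR-9 (0.12) to -0.41 in DESeq2. The causes were not tested, other than the smaller number of samples where libraries were left out.

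The replicate numbers are not said to pair libraries, and same-numbered SST and Neocortex libraries did not deviate together (r = -0.11 and 0.10 over 330 miRNAs). With the replicate number as a block, 268 miRNAs were called against Neocortex, 191 against the anti-Myc groups, and 73 arm ratios. At these depths a miRNA below 2.35 RPM in SST replicate 1 lay under 3 reads. Where 1 SST library was left out, the lone one was assumed to vary like the other groups.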
